A study of Caenorhabditis elegans with 48 samples.

Results

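The cytochrome P450 genes of Caenorhabditis elegans outside the cyp-35 subfamily were examined in whole young adults of 4 strains, with and without a short heat shock and with and without auxin. All genes whose symbol starts with cyp- but not with cyp-35 were taken, by symbol alone. This rule, which leaves out cyp-35, was chosen with earlier results of these data known. The annotation held 64 such genes, all protein coding. Of these, 40 were among the 13129 genes that the 4 deposited tables list between them, in 13 subfamilies. There were 36 in all 4 tables. Both cyp-13A12 and cyp-13B1 were in 3, and cyp-13A4 and cyp-34A6 were in that of JTL621 alone. The other 24 genes were not analysed here.

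Cytochrome P450s are heme enzymes that insert an oxygen atom into small molecules, with electrons passed on by a reductase (EMB-8 in the worm) or by cytochrome b5. Some make or modify the body's own lipids, such as sterol hormones, egg shell lipids and oxygenated fatty acids, and others act on foreign compounds as the first step of detoxification. Many of the worm's detoxifying P450s are known from the intestine and are switched on by the compounds they act on. Subfamily names follow sequence likeness: cyp-31A2 and cyp-31A3, for example, are close copies, so the split of reads between them is uncertain.

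All 4 strains carried unc-119(ed3) with the rescuing Cbr-unc-119(+) on a transgene that expresses mRuby-tagged TIR1, a plant F-box protein that sends degron-tagged proteins to the proteasome when auxin is present. In CA1200 and JTL611 the eft-3 promoter drove TIR1 in the soma (ieSi57), and in CA1199 and JTL621 the sun-1 promoter drove it in the germline (ieSi38). JTL611 and JTL621 had hsf-1::aid::gfp, so that auxin removes the heat shock transcription factor HSF-1 from somatic cells (JTL611) or germ cells (JTL621), whereas CA1200 and CA1199 had no tagged protein and show what auxin itself does. Worms grown for 51 h were placed for 2 h on auxin or on ethanol, the solvent, and then collected at 20 °C or after 30 min at 34 °C. Each of the 16 groups had 3 libraries of polyA RNA. The labels do not say whether replicates were separate cultures, so p-values measure only the spread between these libraries. The worms were collected whole, so fewer cells of a type and less RNA per cell cannot be told apart.

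Listed genes received 9000611 to 24025791 reads per library, of which the P450 genes took 0.0283% to 0.0498%. The library with the fewest reads, replicate 2 of JTL621 heat shocked on auxin, stood apart with 34.5% of its reads on ribosomal RNA genes, against a median of 8.26%, and calls of JTL621 on auxin are also given without it. A count of 3 reads, the least taken as detected, came to 0.127 to 0.478 CPM. Transcripts of hsf-1 averaged 30.4 to 51.8 CPM in the 16 groups and were called in no contrast. Since the degron takes away protein, transcript level says nothing of depletion.

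Levels are given in CPM (reads scaled to library size, as normalised by the authors) and, between genes, in CPM per kb of exon. The tables of the 4 strains were normalised separately, so the order of levels over all libraries is approximate. The highest mean level was that of cyp-31A2 (51.6 CPM per kb), followed by cyp-31A3 (40.5), cyp-44A1 (26.5) and cyp-31A5 (21.2). CYP-31A2 and CYP-31A3 act with EMB-8 in making the lipids of the egg shell, and cyp-44A1 encodes a P450 of the mitochondrial type. Another gene, npp-24, overlaps cyp-44A1 on the same strand, so the level of cyp-44A1 is uncertain. The library ranges of cyp-31A2 and cyp-31A3 overlapped each other, as did those of cyp-31A3 and cyp-44A1 and those of cyp-44A1 and cyp-31A5. The fifth gene by mean level was cyp-33A1 (9.55 CPM per kb), whose highest library (21.8) reached above the lowest of cyp-44A1 (21.6) and cyp-31A5 (14.4). Next came cyp-25A2 (9.32), cyp-34A8 (7.99), cyp-37A1 (7.27), cyp-29A2 (7.26) and cyp-14A5 (7.25), whose library ranges overlapped each other and that of cyp-33A1. Further down, cyp-33C8 (6.20) reached 32.7 in its highest library, within the range of cyp-44A1. The lowest were cyp-42A1 (0.465), cyp-34A6 (0.438) and cyp-13A4 (0.379), which averaged under 1 CPM in every table and were not tested.

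**Figure D1:**
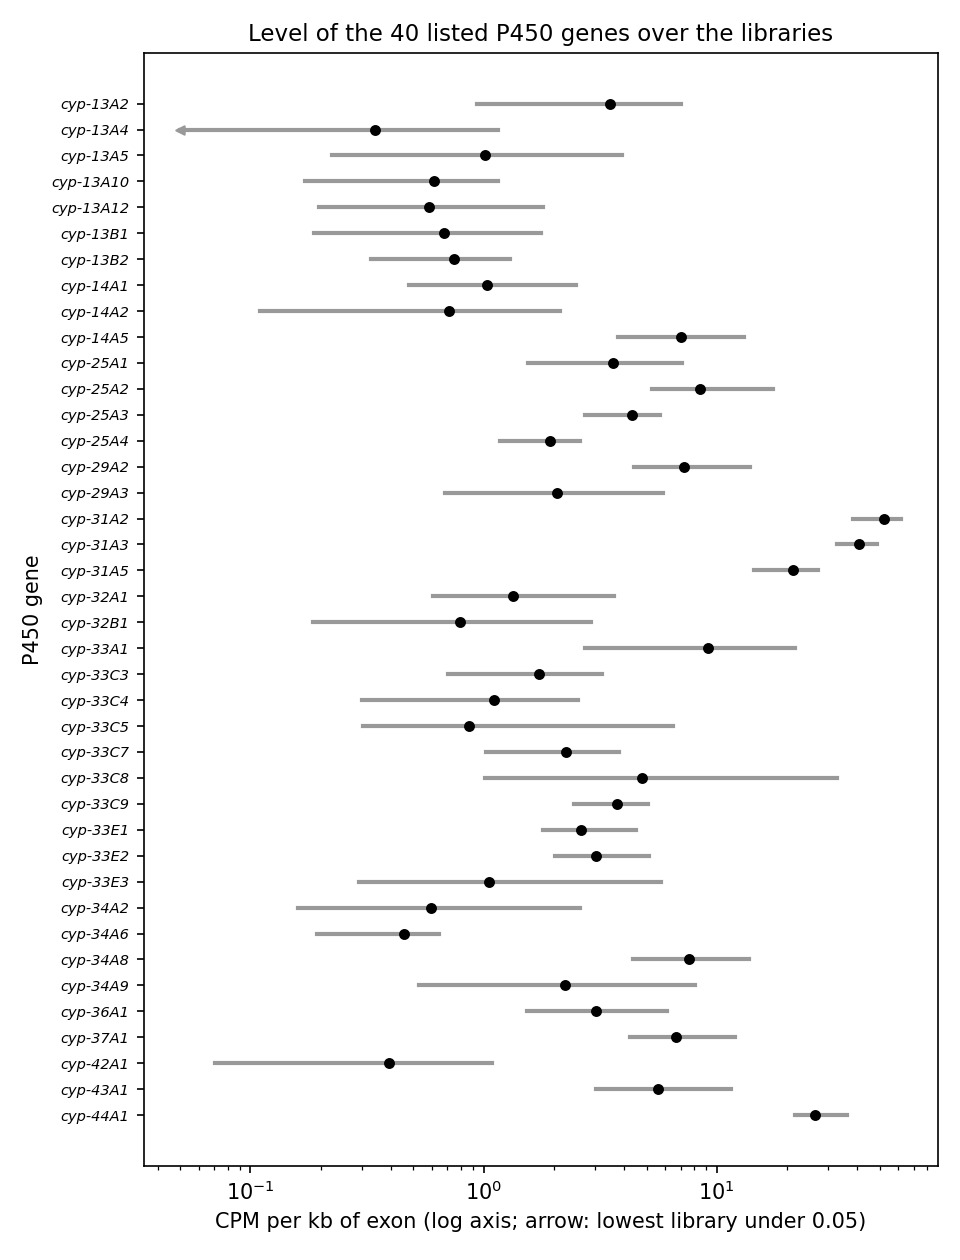
Level of each of the 40 listed P450 genes over its libraries, in CPM per kb of exon on a log axis. Points are medians and lines run from the lowest to the highest library, with an arrow where the lowest is under 0.05. The 3 cyp-31 genes and cyp-44A1 lie at the right, with narrow ranges, while cyp-33C8 and cyp-33C5 span wide ones.

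Tests covered members averaging 1 CPM or more over a strain's 12 libraries, which were 33 in CA1200, 35 in each of JTL611 and CA1199, and 36 in JTL621. In all, 37 members were tested in at least 1 strain and 30 in all 4. The 7 that were tested in some strains only averaged under 1 CPM in at least 1 strain or were not listed there. A gene can pass this filter through the one condition in which it is high, and then had to differ. In 7 of the 66 calls with heat the lower temperature condition, over both plates, averaged under 1 CPM. These calls belong to cyp-13A5 in CA1200, cyp-33C5 and cyp-33E3 in CA1199, and cyp-14A2 and cyp-34A2 in JTL621, and are given as descriptions. The counts of members called with heat below include these calls. Changes are differences of log2(CPM + 1), which understates the change of low genes, and a member was called at an adjusted p under 0.05 in limma, with Benjamini-Hochberg adjustment over all genes tested in that strain.

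After heat shock, the P450 genes that moved mostly fell. On ethanol, 8 of 33 members fell in CA1200, where 7.51% of all genes tested fell, and 2 of 35 fell in JTL611, against 4.17%. In CA1199 12 of 35 fell, against 14.4% of all genes, and in JTL621 8 of 36 fell, against 7.43%. The share in JTL611 was thus near the background. Members that rose on ethanol numbered 0, 0, 1 and 1 in CA1200, JTL611, CA1199 and JTL621, where 5.73%, 2.31%, 3.94% and 2.54% of all genes rose. The median change of the members tested was −0.19, −0.24, −0.28 and −0.45 in the same order, while that of all genes lay between −0.01 and 0.01. By sign alone, whether called or not, 25 of 33, 30 of 35, 30 of 35 and 30 of 36 members had a value below 0.

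On auxin plates, which were separate libraries of the same strains, the members called again mostly fell. There 6 of 33 members fell in CA1200 (9.86% of all genes), 4 of 35 in JTL611 (5.4%), 12 of 35 in CA1199 (12.5%) and 8 of 36 in JTL621 (11.3%). One member rose in CA1200 (9.57% of all genes) and 1 in CA1199 (3.83%), none in JTL611 (2.24%), and 2 in JTL621 (6.22%). Over the 8 heat comparisons, 19 of the 37 members tested fell at least once, 2 rose at least once, 0 did both, and 16 were never called. How many of all genes were called at least once was not counted, so these numbers do not set P450 genes apart. Of the 66 calls behind the member counts, 34 held whichever 1 of the 12 libraries of the strain was left out. Of the 19 members that fell, 10 had such a call, though cyp-14A2 and cyp-33C5 had it only where the lower condition was under the filter. The share of calls that held was not counted for all genes. Without replicate 2 of JTL621 heat shocked on auxin, the library rich in ribosomal RNA, 6 members fell and 1 rose on auxin in that strain. The calls of cyp-13A5, cyp-33C5, cyp-33C7 and cyp-34A2 were lost, so the 6 that fell are not all among the 8 above.

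Single libraries mattered for the number of members called on ethanol, which was 8, 2, 13 and 9 in CA1200, JTL611, CA1199 and JTL621. In CA1200 it was 4 without replicate 2 and 5 without replicate 3 of the heat-shocked ethanol plates, and 5 without replicate 1 of the unheated ones. In JTL611 it was 5 without replicate 1 of the unheated ethanol plates, and in CA1199 8 without replicate 2 of the unheated ethanol plates. In JTL621 it was 5 without replicate 3 of the heat-shocked ethanol plates or without replicate 1 or 2 of the unheated ones, and 15 without the library rich in ribosomal RNA. On auxin the number called, 7 in CA1200, 4 in JTL611 and 10 in JTL621, was 3 without heat-shocked replicate 2 and 4 without unheated replicate 3 in CA1200, 2 without heat-shocked replicate 2 in JTL611, and 6 without unheated replicate 2 in JTL621. Replicate numbers paired the libraries of JTL611 in this contrast, and with the replicate as a block 4 members rather than 2 were called there on ethanol, cyp-34A8 (adjusted p = 0.0369 in limma) and cyp-32A1 (0.0306) being added. The share of all genes called was not counted in these other fits. Their numbers therefore do not show whether P450 genes moved apart from other genes.

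**Figure D2:**
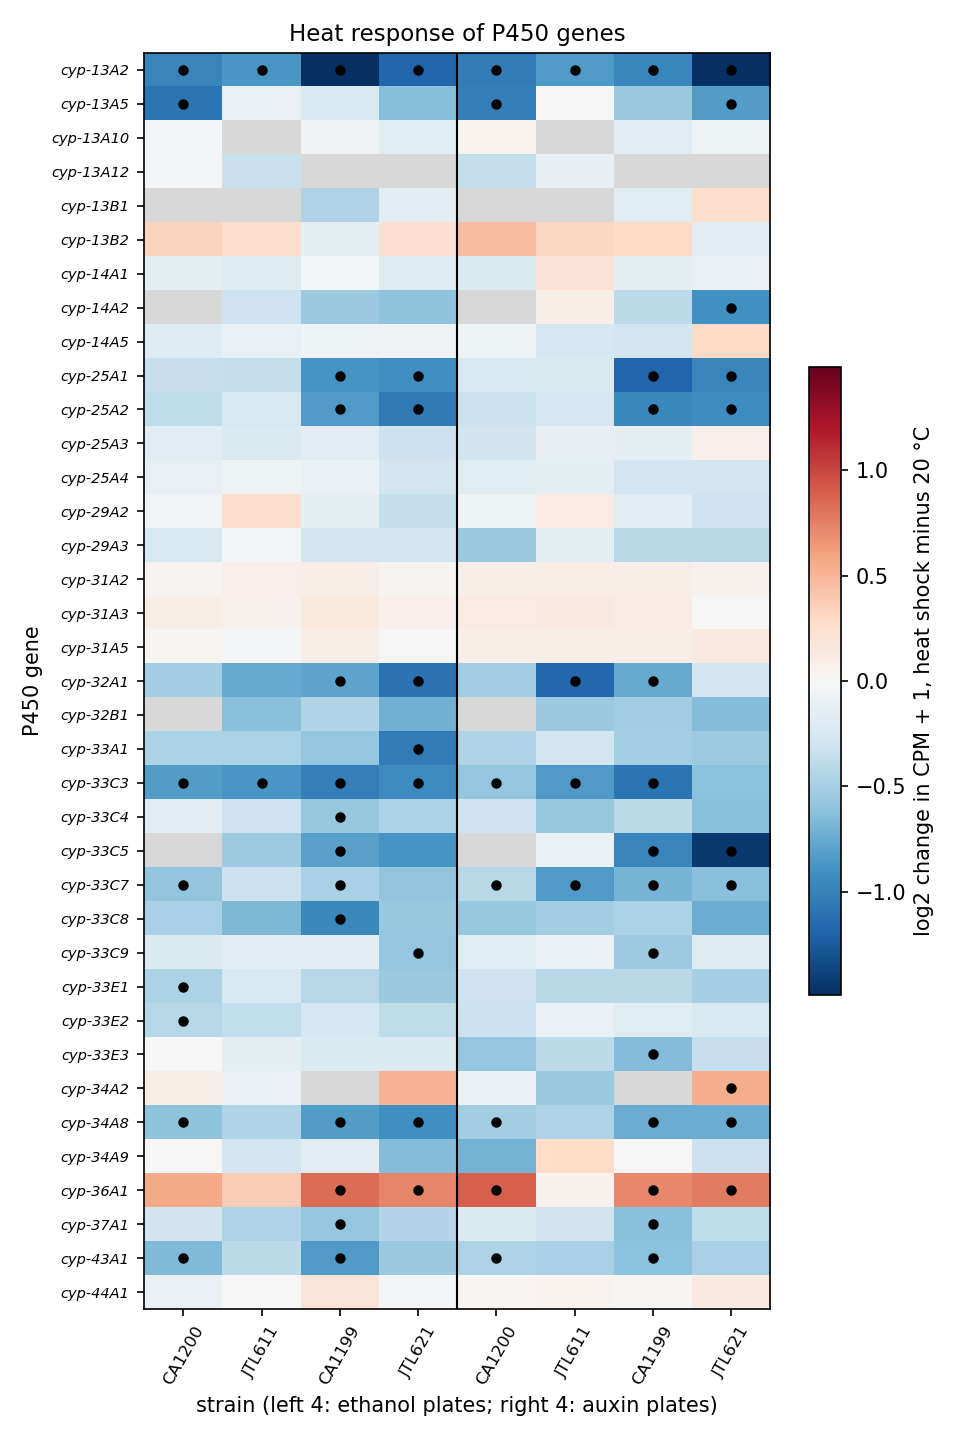
Heat response of the 37 P450 genes tested (rows), as the change in log2(CPM + 1) from 20 °C to heat shock, in 4 strains on ethanol (left) and on auxin (right). Blue is lower and red higher after heat shock, a dot marks an adjusted p under 0.05 in limma, and grey marks strains in which the gene was not tested. The row of cyp-13A2 is marked in all 8 columns, that of cyp-36A1 is the one red row with several marks, and the cyp-31 rows are near white.

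The member that fell most steadily was cyp-13A2 (chrII:9783384-9787629, minus strand, WBcel235), a gene of the cyp-13A cluster on chromosome II, called in all 8 heat comparisons. In CA1200, cyp-13A2 was at 15.8, 9.56 and 10.4 CPM on ethanol at 20 °C, 5.51, 4.83 and 5.89 after heat shock on ethanol, 13.6, 11.5 and 13.5 on auxin at 20 °C and 5.81, 4.96 and 6.52 after heat shock on auxin. In JTL611, cyp-13A2 was at 11.96, 15.4 and 10.7 CPM on ethanol at 20 °C, 6.06, 6.91 and 6.32 after heat shock on ethanol, 15.7, 15.1 and 13.2 on auxin at 20 °C and 7.19, 8.54 and 7.37 after heat shock on auxin. In both strains every heat-shocked library lay below every unheated one, on either plate. In CA1199, cyp-13A2 was at 10.7, 9.74 and 11.97 CPM on ethanol at 20 °C, 2.93, 2.11 and 5.05 after heat shock on ethanol, 9.34, 9.27 and 6.80 on auxin at 20 °C and 5.32, 3.299 and 3.01 after heat shock on auxin. In JTL621, cyp-13A2 was at 14.2, 10.01 and 11.6 CPM on ethanol at 20 °C, 3.94, 4.73 and 5.40 after heat shock on ethanol, 14.3, 13.7 and 8.32 on auxin at 20 °C and 4.26, 2.55 and 4.13 after heat shock on auxin. The groups again did not overlap on either plate. On ethanol the change was −0.98 (SE 0.16, adjusted p = 0.00138) in CA1200, −0.87 (SE 0.14, adjusted p = 0.00210) in JTL611, −1.49 (SE 0.23, adjusted p = 0.000600) in CA1199 and −1.18 (SE 0.22, adjusted p = 0.00450) in JTL621 by limma. On auxin it was −1.04, −0.85, −0.98 and −1.48, with limma adjusted p between 0.000789 and 0.0108. The call on auxin in CA1199 was lost without replicate 3 of its heat-shocked auxin plates (adjusted p = 0.0568). Without the library rich in ribosomal RNA the auxin value in JTL621 was −1.30 (adjusted p = 0.00265).

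Other cyp-13 genes lie near cyp-13A2 or on other chromosomes (III and X). Its neighbour cyp-13A5 fell in CA1200 on ethanol (−1.09, limma adjusted p = 0.0362) and auxin (−1.02, 0.0377) and in JTL621 on auxin (−0.83, 0.0454), and stood at −0.11 and −0.01 in JTL611. Its heat-shocked libraries in CA1200 averaged 0.715 ± 0.330 CPM (SD, n = 3) on ethanol and 0.883 ± 0.383 on auxin, under the filter. In CA1200 the ethanol call was lost without heat-shocked ethanol replicate 2 (0.141) or 3 (0.0888) or unheated ethanol replicate 1 (0.112), and the auxin call without heat-shocked auxin replicate 1 (0.102) or 2 (0.0801) or unheated auxin replicate 2 (0.0905) or 3 (0.127). In JTL621 it was lost without any one of 10 libraries (adjusted p 0.0524 to 0.122), the exceptions being unheated ethanol replicate 2 or 3, and was −0.93 (adjusted p = 0.0524) without the library rich in ribosomal RNA. Neither cyp-13A10, cyp-13A12, cyp-13B1 nor cyp-13B2 was called in a heat comparison, and their changes ran from −0.45 (cyp-13B1 in CA1199 on ethanol) to 0.46 (cyp-13B2 in CA1200 on auxin). CYP-13A12 is known for making signals from polyunsaturated fatty acids that alter locomotion when oxygen returns. It was tested in CA1200 and JTL611 only.

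The largest subfamily, cyp-33, had 10 listed members, and all of its calls with heat were falls. On ethanol 4 of 9 tested fell in CA1200 (7.51% of all genes), 1 of 10 in JTL611 (4.17%), 5 of 10 in CA1199 (14.4%) and 3 of 10 in JTL621 (7.43%). The subfamily's median change was −0.47, −0.34, −0.53 and −0.57 in the same order. Each of its 10 genes was called in at least 1 of the 8 heat comparisons, but only cyp-33C3, cyp-33C5 and cyp-33C7 had a call that held whichever library was left out. The share of all genes called at least once was not counted. The only heat call of cyp-33E3, and the calls of cyp-33C5 that held, are among those given as descriptions. The one that fell on ethanol in all 4 strains was cyp-33C3 (chrV:2242778-2244865, plus strand), a gene that lies in a row with cyp-33C4, cyp-33C5 and cyp-33C7 on chromosome V. In CA1200, cyp-33C3 was at 5.03, 3.39 and 4.86 CPM on ethanol at 20 °C, 2.06, 1.98 and 1.98 after heat shock on ethanol, 3.56, 3.24 and 4.72 on auxin at 20 °C and 3.15, 1.84 and 1.81 after heat shock on auxin. In JTL611, cyp-33C3 was at 3.80, 3.91 and 5.098 CPM on ethanol at 20 °C, 2.36, 1.31 and 2.09 after heat shock on ethanol, 4.50, 4.28 and 3.99 on auxin at 20 °C and 2.12, 1.52 and 2.21 after heat shock on auxin. Heat-shocked libraries were below unheated ones without overlap in both strains. In CA1199, cyp-33C3 was at 5.73, 5.65 and 4.52 CPM on ethanol at 20 °C, 2.93, 1.56 and 1.98 after heat shock on ethanol, 4.54, 5.001 and 5.60 on auxin at 20 °C and 1.25, 1.97 and 2.40 after heat shock on auxin. In JTL621, cyp-33C3 was at 4.58, 5.47 and 5.28 CPM on ethanol at 20 °C, 2.15, 1.54 and 2.99 after heat shock on ethanol, 2.99, 5.31 and 3.72 on auxin at 20 °C and 1.80, 2.55 and 2.36 after heat shock on auxin. The same held in these 2 strains. The change on ethanol was −0.84 (SE 0.18, adjusted p = 0.00743) in CA1200, −0.86 (SE 0.17, adjusted p = 0.00931) in JTL611, −1.01 (SE 0.19, adjusted p = 0.00195) in CA1199 and −0.94 (SE 0.21, adjusted p = 0.0111) in JTL621 by limma. On auxin it was −0.58, −0.84 and −1.09 in the first 3, where it was called, and −0.61 in JTL621 (limma adjusted p = 0.0571). In JTL621 on ethanol the adjusted p was 0.0640 without heat-shocked replicate 2 and 0.0504 without unheated replicate 2. On auxin in CA1200 the call was lost without any one of 6 libraries (adjusted p 0.0505 to 0.154), namely replicates 2 and 3 of both heat-shocked groups and replicates 1 and 3 of the unheated auxin plates, and in JTL611 without heat-shocked auxin replicate 2 (0.0528).

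The neighbours of cyp-33C3 were called in fewer comparisons. In the same row, cyp-33C7 fell in 6 of 8, with −0.59 in CA1200 and −0.49 in CA1199 on ethanol and −0.41, −0.84, −0.69 and −0.62 in the 4 strains on auxin. Its calls in CA1200 on ethanol and CA1199 on auxin held whichever library was left out. The call in CA1199 on ethanol was lost without heat-shocked ethanol replicate 1 (0.0556) or 3 (0.120), unheated ethanol replicate 1 (0.115), 2 (0.0762) or 3 (0.0518) or unheated auxin replicate 3 (0.0516). On auxin the call was lost in CA1200 without heat-shocked auxin replicate 2 (0.0966) or 3 (0.0618) or unheated auxin replicate 1 (0.0811), 2 (0.0734) or 3 (0.0825), in JTL611 without heat-shocked auxin replicate 1 (0.0635) or 2 (0.0519) or unheated auxin replicate 2 (0.0694), and in JTL621 without heat-shocked auxin replicate 1 (0.0544) or 2 (0.0789) or unheated auxin replicate 2 (0.116) or 3 (0.0558), of which heat-shocked auxin replicate 2 is the library rich in ribosomal RNA. Without that library the auxin values in JTL621 were −0.56 (adjusted p = 0.0789) for cyp-33C7 and −1.27 (adjusted p = 0.0935) for cyp-33C5. By limma cyp-33C5 fell in CA1199 on both plates (−0.81 and −0.99) and in JTL621 on auxin (−1.44), and cyp-33C4 in CA1199 on ethanol (−0.56). In CA1199 cyp-33C5 averaged 0.976 ± 0.181 CPM (SD, n = 3) after heat shock and 2.50 ± 0.690 at 20 °C on ethanol, so the lower value was under the filter. Its call in JTL621 was lost without heat-shocked auxin replicate 2 (0.0935) or unheated auxin replicate 2 (0.105) or 3 (0.0714), and that of cyp-33C4 without heat-shocked ethanol replicate 1 (0.0867) or 2 (0.107) or unheated ethanol replicate 2 (0.0961) or 3 (0.0813). In JTL611 on auxin, where the numbers paired the libraries, cyp-33C4 was called with the replicate block (adjusted p = 0.0481). Elsewhere on chromosome V, cyp-33C9 fell in JTL621 on ethanol (−0.58) and CA1199 on auxin (−0.54), calls lost in JTL621 without heat-shocked ethanol replicate 1 (0.143) or 3 (0.0970) or unheated ethanol replicate 1 (0.0684), 2 (0.116) or 3 (0.0715) and in CA1199 without heat-shocked auxin replicate 2 (0.0601) or unheated auxin replicate 2 (0.0697). Of the members tested, cyp-33C8 had the widest spread between libraries by ratio, 1.69 to 54.6 CPM, and was called in CA1199 on ethanol alone (−0.96, limma adjusted p = 0.0451), a call lost without heat-shocked ethanol replicate 1 (0.145) or 2 (0.0993), unheated ethanol replicate 2 (0.179) or 3 (0.0865) or unheated auxin replicate 3 (0.0609). On chromosome IV, cyp-33E1 (−0.47) and cyp-33E2 (−0.42) fell in CA1200 on ethanol by limma (adjusted p = 0.0395 and 0.0498). The call of cyp-33E1 was lost without heat-shocked ethanol replicate 1 (0.0718), 2 (0.163) or 3 (0.0584), unheated ethanol replicate 1 (0.122) or 2 (0.125) or unheated auxin replicate 2 (0.05004). That of cyp-33E2 was lost without any one of 10 libraries (adjusted p 0.0516 to 0.205) and held without heat-shocked ethanol replicate 1 or heat-shocked auxin replicate 3. With the block cyp-33E1 was also called in CA1199 on auxin (adjusted p = 0.0438), where the numbers paired the libraries. CYP-33E2 makes oxygenated derivatives of eicosapentaenoic acid and is known from the pharynx.

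The most highly expressed member of the subfamily per kb, cyp-33A1 (chrV:7679314-7681459, minus strand), varied widely between replicates. In CA1200, cyp-33A1 was at 18.1, 14.2 and 6.54 CPM on ethanol at 20 °C, 12.4, 10.3 and 4.34 after heat shock on ethanol, 18.8, 19.3 and 12.3 on auxin at 20 °C and 15.4, 13.04 and 8.16 after heat shock on auxin. In JTL611, cyp-33A1 was at 16.2, 23.5 and 7.65 CPM on ethanol at 20 °C, 15.3, 13.5 and 4.80 after heat shock on ethanol, 15.7, 16.5 and 14.4 on auxin at 20 °C and 13.9, 11.8 and 12.02 after heat shock on auxin. On ethanol, replicate 3 was the lowest library at both temperatures in each of these strains. In CA1199, cyp-33A1 was at 23.6, 14.5 and 11.4 CPM on ethanol at 20 °C, 15.5, 11.4 and 5.94 after heat shock on ethanol, 27.3, 15.7 and 29.5 on auxin at 20 °C and 19.7, 12.6 and 16.8 after heat shock on auxin. In JTL621, cyp-33A1 was at 34.6, 23.5 and 12.5 CPM on ethanol at 20 °C, 14.8, 9.28 and 7.32 after heat shock on ethanol, 20.8, 22.9 and 18.8 on auxin at 20 °C and 15.1, 11.01 and 16.3 after heat shock on auxin. The same was true on ethanol in CA1199 and JTL621, and heat-shocked and unheated libraries overlapped on ethanol in all 4 strains. The change on ethanol was −0.48, −0.47, −0.58 and −1.04 in CA1200, JTL611, CA1199 and JTL621, called in JTL621 only (SE 0.31, limma adjusted p = 0.0477). That call held in 5 of the 12 fits that each left out 1 library and was lost without heat-shocked ethanol replicate 2 (0.151) or 3 (0.170), unheated ethanol replicate 1 (0.204) or 2 (0.140), heat-shocked auxin replicate 1 (0.0509) or 3 (0.0634) or unheated auxin replicate 3 (0.0664). In CA1200, where replicate numbers paired the libraries, the change was called with the replicate as a block on ethanol (adjusted p = 0.0308) and on auxin (0.0310).

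In the cyp-34 subfamily, cyp-34A8 (chrV:3964797-3967823, minus strand) fell in 3 strains on each plate. It belongs to the cyp-34A cluster on chromosome V, and a noncoding gene, B0213.25, overlaps it on the other strand. In CA1200, cyp-34A8 was at 12.2, 13.3 and 14.2 CPM on ethanol at 20 °C, 9.81, 7.12 and 8.43 after heat shock on ethanol, 12.7, 13.6 and 17.1 on auxin at 20 °C and 10.3, 8.63 and 10.3 after heat shock on auxin. In JTL611, cyp-34A8 was at 15.4, 11.2 and 16.7 CPM on ethanol at 20 °C, 10.9, 8.99 and 10.9 after heat shock on ethanol, 14.5, 16.1 and 16.04 on auxin at 20 °C and 10.6, 10.3 and 12.1 after heat shock on auxin. Heat-shocked libraries were below unheated ones on both plates, without overlap, in JTL611 as in CA1200. In CA1199, cyp-34A8 was at 16.9, 20.4 and 16.4 CPM on ethanol at 20 °C, 7.55, 12.03 and 9.65 after heat shock on ethanol, 13.7, 15.7 and 17.2 on auxin at 20 °C and 9.26, 9.37 and 8.15 after heat shock on auxin. In JTL621, cyp-34A8 was at 18.001, 18.2 and 16.04 CPM on ethanol at 20 °C, 6.93, 10.3 and 9.49 after heat shock on ethanol, 14.97, 21.9 and 14.5 on auxin at 20 °C and 8.98, 11.8 and 8.51 after heat shock on auxin. There too the groups did not overlap. By limma the change on ethanol was −0.60 (SE 0.14, adjusted p = 0.00994) in CA1200, −0.83 (SE 0.15, adjusted p = 0.00189) in CA1199 and −0.91 (SE 0.19, adjusted p = 0.00804) in JTL621. In JTL611 it was −0.44 (SE 0.14, adjusted p = 0.0937), and 0.0369 with the replicate block. On auxin the changes were −0.51, −0.46, −0.73 and −0.74 in CA1200, JTL611, CA1199 and JTL621, called in all but JTL611 (limma adjusted p = 0.0727, and 0.0272 with the block). In CA1200 the call was lost without heat-shocked ethanol replicate 2 (0.0534) and, on auxin, without heat-shocked replicate 2 (0.0727) or unheated replicate 3 (0.0918), and in JTL621 on auxin without heat-shocked replicate 3 (0.0647) or unheated replicate 2 (0.0740). Its neighbour cyp-34A9 was not called with heat in any strain (0.001, −0.28, −0.17 and −0.64 on ethanol), and cyp-34A2, elsewhere on chromosome V, rose in JTL621 on auxin (0.54, limma adjusted p = 0.0429). On those plates cyp-34A2 averaged 0.596 ± 0.258 CPM (SD, n = 3) at 20 °C, under the filter, and 1.33 ± 0.378 after heat shock. Without the library rich in ribosomal RNA the change was 0.42 (adjusted p = 0.129) and the call was lost, as it was without any one of 8 others (adjusted p 0.0526 to 0.129 over the 9). It held without heat-shocked auxin replicate 1 or 3 or unheated auxin replicate 3. Without that library cyp-34A8 was still called on auxin, at −0.87 (adjusted p = 0.0115).

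**Figure D3:**
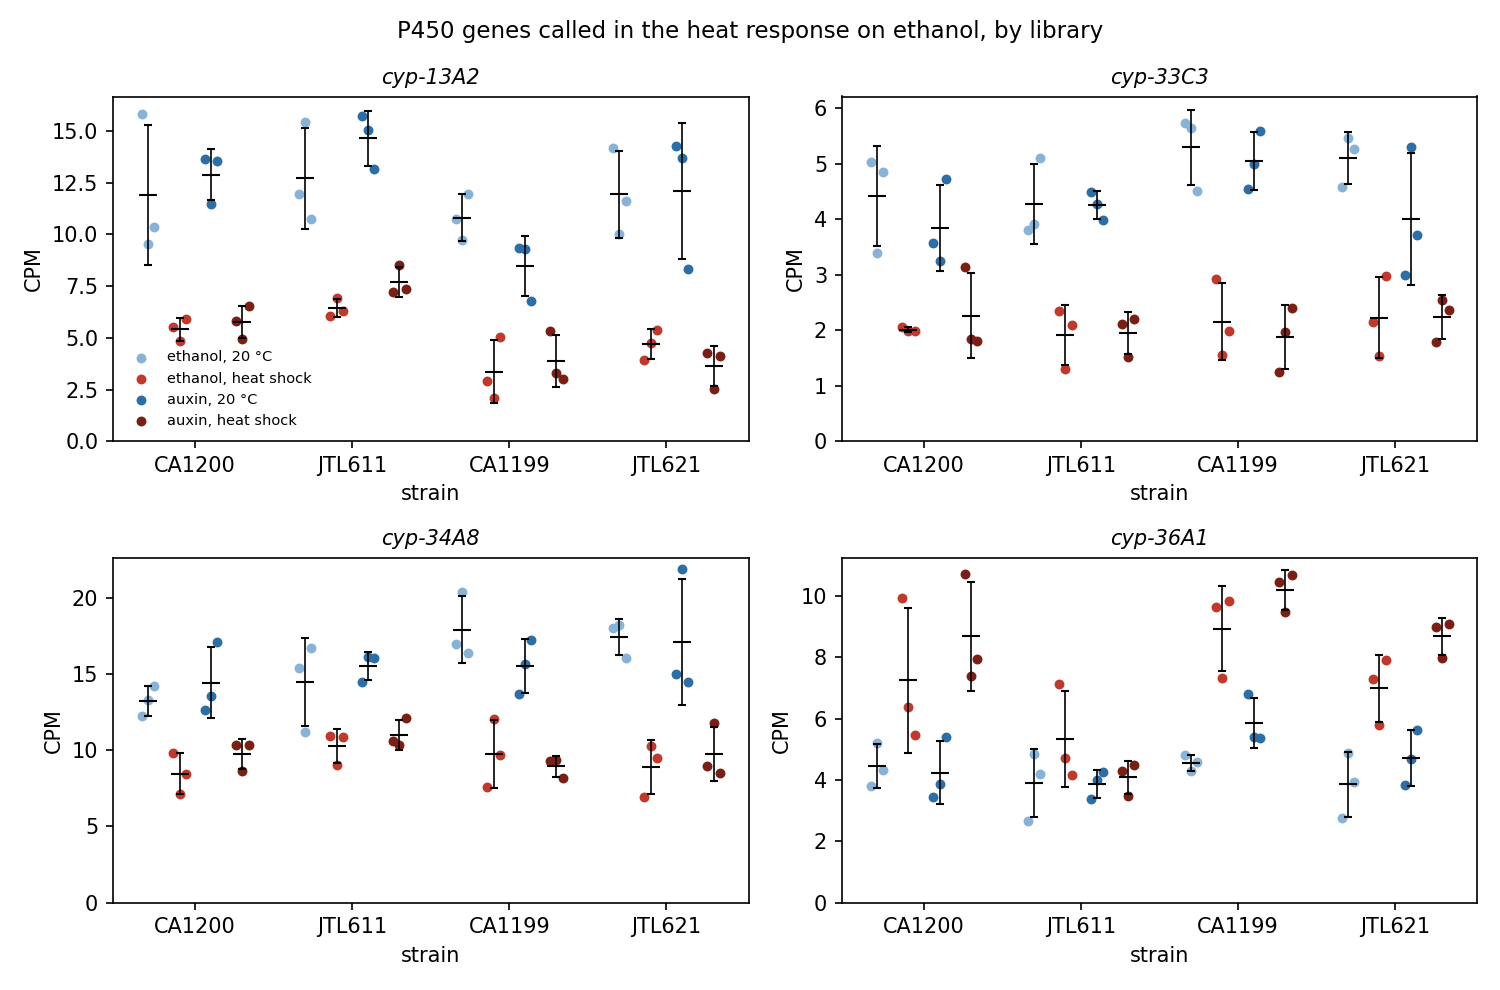
CPM of cyp-13A2, cyp-33C3, cyp-34A8 and cyp-36A1 in every library, by strain, plate and temperature. Points are libraries, short bars are means and error bars are 1 SD over 3 libraries. Heat-shocked libraries (red shades) of the first 3 genes lie below the unheated ones (blue shades) of the same plate and strain, and those of cyp-36A1 above them except in JTL611.

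The 4 cyp-25 genes lie close together on chromosome III. The pair on the plus strand, cyp-25A1 and cyp-25A2, fell in 2 strains, and the pair on the minus strand, cyp-25A3 and cyp-25A4, was not called. The highest per kb was cyp-25A2 (chrIII:3835221-3837211, plus strand). In CA1200, cyp-25A2 was at 13.2, 15.7 and 14.7 CPM on ethanol at 20 °C, 14.05, 9.16 and 10.2 after heat shock on ethanol, 15.3, 15.04 and 12.03 on auxin at 20 °C and 12.7, 11.6 and 9.12 after heat shock on auxin. In JTL611, cyp-25A2 was at 17.7, 12.9 and 10.9 CPM on ethanol at 20 °C, 14.5, 10.5 and 9.59 after heat shock on ethanol, 16.2, 17.9 and 14.1 on auxin at 20 °C and 15.7, 11.4 and 12.9 after heat shock on auxin. In both strains the heat-shocked and unheated libraries overlapped on each plate. In CA1199, cyp-25A2 was at 19.7, 21.1 and 17.5 CPM on ethanol at 20 °C, 10.8, 12.4 and 8.26 after heat shock on ethanol, 17.0, 24.01 and 27.2 on auxin at 20 °C and 10.9, 10.8 and 11.2 after heat shock on auxin. In JTL621, cyp-25A2 was at 24.6, 23.9 and 18.5 CPM on ethanol at 20 °C, 11.2, 9.41 and 9.83 after heat shock on ethanol, 18.6, 21.8 and 23.7 on auxin at 20 °C and 9.97, 9.25 and 13.5 after heat shock on auxin. Here they did not overlap on either plate. The change on ethanol was −0.85 (SE 0.17, adjusted p = 0.00296) in CA1199 and −1.06 (SE 0.16, adjusted p = 0.00122) in JTL621, against −0.37 (SE 0.16, adjusted p = 0.147) in CA1200 and −0.24 (SE 0.19, adjusted p = 0.560) in JTL611 by limma. For cyp-25A1 it was −0.88 and −0.91 where it was called, against −0.35 and −0.36. In JTL621 the ethanol call of cyp-25A1 was lost without heat-shocked ethanol replicate 2 (0.0602) or 3 (0.0582) or unheated ethanol replicate 1 (0.0664) or 2 (0.0509). On auxin both genes fell in CA1199 (−1.18 for cyp-25A1 and −0.97 for cyp-25A2) and JTL621 (−0.98 and −0.92) and were called in neither of the other strains. Without the library rich in ribosomal RNA the JTL621 values were −0.94 (adjusted p = 0.0173) and −0.82 (adjusted p = 0.00811). CA1199 and JTL621 are the strains with germline TIR1. The heat response on ethanol was compared for JTL611 minus CA1200, JTL621 minus CA1199 and CA1199 minus CA1200, and neither gene was called. For cyp-25A2, CA1199 minus CA1200 was −0.47 (SE 0.24, limma adjusted p = 0.534). JTL621 was not compared with JTL611, and strains were not compared for heat on auxin. The minus-strand pair stood between −0.32 and 0.08 over the 8 heat comparisons.

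Of the 3 cyp-14 genes, cyp-14A5 (chrV:5421018-5423282, minus strand) was the highest per kb and was called in nothing. In CA1200, cyp-14A5 was at 13.7, 9.69 and 8.16 CPM on ethanol at 20 °C, 9.87, 8.85 and 8.06 after heat shock on ethanol, 11.8, 7.97 and 10.1 on auxin at 20 °C and 11.01, 7.04 and 10.1 after heat shock on auxin. In JTL611, cyp-14A5 was at 5.91, 12.6 and 13.4 CPM on ethanol at 20 °C, 7.81, 10.4 and 9.82 after heat shock on ethanol, 9.05, 12.6 and 11.6 on auxin at 20 °C and 7.06, 8.79 and 11.7 after heat shock on auxin. The 4 groups overlapped in both strains. In CA1199, cyp-14A5 was at 11.03, 19.6 and 11.8 CPM on ethanol at 20 °C, 11.5, 15.2 and 12.5 after heat shock on ethanol, 15.7, 10.5 and 12.1 on auxin at 20 °C and 12.4, 9.15 and 9.50 after heat shock on auxin. In JTL621, cyp-14A5 was at 10.99, 15.3 and 12.9 CPM on ethanol at 20 °C, 9.38, 14.6 and 14.2 after heat shock on ethanol, 10.9, 11.6 and 11.5 on auxin at 20 °C and 10.7, 20.4 and 12.5 after heat shock on auxin. They overlapped here as well, and the highest value, 20.4 CPM, was in the library rich in ribosomal RNA. Its heat response ran from −0.27 to 0.28. On chromosome X, cyp-14A1 was not called (−0.21 to 0.21), and cyp-14A2 fell in JTL621 on auxin (−0.90, limma adjusted p = 0.00529) and was called on ethanol there with the replicate block (0.0455), in a contrast where the numbers paired the libraries. The auxin value was −0.78 (adjusted p = 0.0176) without the library rich in ribosomal RNA, and heat-shocked auxin libraries of cyp-14A2 averaged 0.967 ± 0.347 CPM (SD, n = 3), under the filter.

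Calls in the cyp-32, cyp-37 and cyp-43 subfamilies were falls as well. With heat cyp-32A1 fell in 4 comparisons, CA1199 (−0.78) and JTL621 (−1.10) on ethanol and JTL611 (−1.17) and CA1199 (−0.75) on auxin. The call in CA1199 was lost on ethanol without heat-shocked ethanol replicate 2 (0.0590) or 3 (0.0622) or unheated ethanol replicate 1 (0.0582) or 2 (0.0774), and on auxin without heat-shocked auxin replicate 2 (0.0705) or 3 (0.123) or unheated auxin replicate 1 (0.113) or 3 (0.0584). In JTL621 it was lost without heat-shocked ethanol replicate 1 (0.0613) or unheated ethanol replicate 3 (0.0511), and in JTL611 it held whichever library was left out. With the block cyp-32A1 was also called in CA1200 on auxin (adjusted p = 0.0423). Its relative cyp-32B1 was at −0.71 to −0.45 and not called. In CA1200 and CA1199 cyp-43A1 fell on both plates, by limma at −0.66 and −0.84 on ethanol and −0.46 and −0.61 on auxin. Of these 4 calls that in CA1199 on auxin was lost without heat-shocked auxin replicate 2 (0.0666) or unheated auxin replicate 3 (0.0876). In CA1199 cyp-37A1 fell on both plates (−0.58 and −0.62). The ethanol call of cyp-37A1 was lost without heat-shocked ethanol replicate 2 (0.105) or 3 (0.0622) or unheated ethanol replicate 2 (0.129) or 3 (0.0676), and the auxin call without heat-shocked auxin replicate 2 (0.114) or 3 (0.0783) or unheated auxin replicate 2 (0.0753) or 3 (0.0788). Each of cyp-37A1 and cyp-43A1 overlaps a gene on the other strand, F01D5.8 and C41G11.1, and neither of those was called with heat. Whether reads were counted by strand is not given in the sources used here, so some reads of such pairs may be counted for the wrong gene. The cyp-29 genes were not called with heat, with cyp-29A2 at −0.04, 0.26, −0.14 and −0.36 on ethanol in the 4 strains (CA1200, JTL611, CA1199, JTL621). With the block cyp-29A3 was called in CA1200 on auxin (−0.55, adjusted p = 0.0162). Heat-shocked libraries of cyp-29A3 were below unheated ones on both plates, without overlap, in CA1199 (−0.28 on ethanol) and JTL621 (−0.28), with limma adjusted p = 0.205 and 0.278.

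One member rose with heat in more than 1 strain, and it is given in full because of its values. It was cyp-36A1 (chrI:8341682-8346023, minus strand), a gene known from the EGL-9 and HIF-1 oxygen-sensing pathway, in which it acts on stress resistance and egg laying through the nuclear receptor NHR-46. In CA1200, cyp-36A1 was at 3.80, 5.22 and 4.34 CPM on ethanol at 20 °C, 9.93, 6.38 and 5.46 after heat shock on ethanol, 3.44, 3.88 and 5.39 on auxin at 20 °C and 10.7, 7.41 and 7.93 after heat shock on auxin. In JTL611, cyp-36A1 was at 2.67, 4.84 and 4.19 CPM on ethanol at 20 °C, 7.13, 4.70 and 4.18 after heat shock on ethanol, 3.37, 3.99 and 4.28 on auxin at 20 °C and 4.30, 3.48 and 4.48 after heat shock on auxin. In CA1200 the heat-shocked libraries were higher on both plates without overlap, while in JTL611 the groups overlapped. In CA1199, cyp-36A1 was at 4.81, 4.29 and 4.57 CPM on ethanol at 20 °C, 9.64, 7.34 and 9.85 after heat shock on ethanol, 6.82, 5.40 and 5.37 on auxin at 20 °C and 10.5, 9.47 and 10.7 after heat shock on auxin. In JTL621, cyp-36A1 was at 2.76, 4.88 and 3.94 CPM on ethanol at 20 °C, 7.29, 5.78 and 7.90 after heat shock on ethanol, 3.82, 4.67 and 5.64 on auxin at 20 °C and 8.98, 7.97 and 9.10 after heat shock on auxin. All heat-shocked libraries were above the unheated ones here, on both plates. By limma the change on ethanol was 0.83 (SE 0.14, adjusted p = 0.000871) in CA1199 and 0.73 (SE 0.19, adjusted p = 0.0274) in JTL621. It was 0.57 (SE 0.21, adjusted p = 0.0877) in CA1200 and 0.37 (SE 0.20, adjusted p = 0.358) in JTL611, and cyp-36A1 was called in neither. On auxin cyp-36A1 rose in CA1200 (0.89), CA1199 (0.71) and JTL621 (0.77) and stood at 0.06 in JTL611. In JTL621 the auxin value was 0.83 (adjusted p = 0.0224) without the library rich in ribosomal RNA. The heat response of JTL611 minus that of CA1200 on ethanol was −0.20 (SE 0.30, limma adjusted p = 0.9996), so a difference between the strains was not shown. Strains were not compared for heat on auxin. The call in JTL621 on ethanol was lost on leaving out replicate 1 (0.108) or 3 (0.105) of the heat-shocked or replicate 1 (0.121) or 3 (0.0708) of the unheated ethanol plates. On the other strand figo-1 overlaps cyp-36A1, at a mean of 50.4 to 55.2 CPM in the 4 strains, and its own heat response ran from −0.08 to 0.18 and was not called.

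The cyp-31 genes and cyp-44A1, the most abundant members, were not called with heat in any strain. In CA1200, cyp-31A2 was at 86.4, 85.7 and 85.3 CPM on ethanol at 20 °C, 90.4, 88.7 and 85.1 after heat shock on ethanol, 84.6, 86.9 and 77.7 on auxin at 20 °C and 89.8, 92.2 and 82.4 after heat shock on auxin. In JTL611, cyp-31A2 was at 93.1, 76.8 and 83.0 CPM on ethanol at 20 °C, 87.2, 87.1 and 91.5 after heat shock on ethanol, 84.7, 89.7 and 85.97 on auxin at 20 °C and 91.6, 101 and 87.2 after heat shock on auxin. The heat-shocked and unheated libraries of cyp-31A2 overlapped on each plate. In CA1199, cyp-31A2 was at 83.5, 71.3 and 79.6 CPM on ethanol at 20 °C, 96.0, 72.2 and 85.1 after heat shock on ethanol, 83.9, 84.9 and 80.0 on auxin at 20 °C and 87.1, 92.1 and 88.4 after heat shock on auxin. In JTL621, cyp-31A2 was at 87.0, 74.1 and 71.9 CPM on ethanol at 20 °C, 83.2, 80.0 and 76.7 after heat shock on ethanol, 90.6, 62.8 and 76.1 on auxin at 20 °C and 87.3, 67.5 and 84.4 after heat shock on auxin. They overlapped here too, except on auxin in CA1199, where the heat-shocked libraries were slightly higher. Over the 8 heat comparisons the change of cyp-31A2 (chrIV:11403961-11406091, plus strand) was 0.04 to 0.10, that of cyp-31A3 0.01 to 0.14, that of cyp-31A5 −0.02 to 0.13 and that of cyp-44A1 −0.09 to 0.19. For cyp-31A2 on ethanol the 95% interval of the change was −0.10 to 0.17 in CA1200 and −0.26 to 0.35 in JTL621. None of the 4 genes was called by limma in any contrast. On the same strand npp-24 overlaps cyp-44A1, at a mean of 70.8 to 79.4 CPM in the 4 strains. The heat response of npp-24 ran from 0.08 to 0.20 and was not called. Reads of this pair cannot be told apart by strand, so some may be counted for the wrong gene.

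Auxin raised few of the P450 genes outside cyp-35, and cyp-29A3 was the one with most calls. CYP-29A3 has been tied to the oxygenation of eicosapentaenoic acid, and its gene lies near the left end of chromosome V (chrV:59239-63633, plus strand). In CA1200, cyp-29A3 was at 3.16, 2.98 and 2.14 CPM on ethanol at 20 °C, 2.91, 2.04 and 1.67 after heat shock on ethanol, 9.71, 10.2 and 4.82 on auxin at 20 °C and 6.29, 5.94 and 3.40 after heat shock on auxin. In JTL611, cyp-29A3 was at 3.94, 2.42 and 1.86 CPM on ethanol at 20 °C, 2.63, 2.26 and 2.82 after heat shock on ethanol, 7.34, 4.95 and 3.83 on auxin at 20 °C and 6.23, 3.99 and 3.97 after heat shock on auxin. In CA1200 every auxin library was above every ethanol library of the same temperature, and in JTL611 this held after heat shock and narrowly failed at 20 °C. In CA1199, cyp-29A3 was at 2.32, 2.01 and 2.07 CPM on ethanol at 20 °C, 1.82, 1.77 and 1.19 after heat shock on ethanol, 5.65, 5.80 and 7.20 on auxin at 20 °C and 3.94, 4.84 and 4.45 after heat shock on auxin. In JTL621, cyp-29A3 was at 2.54, 1.99 and 2.40 CPM on ethanol at 20 °C, 1.79, 1.60 and 1.78 after heat shock on ethanol, 5.99, 4.75 and 6.16 on auxin at 20 °C and 3.99, 3.99 and 3.93 after heat shock on auxin. Auxin libraries were higher without overlap at both temperatures in these strains. At 20 °C the auxin effect was 1.20 (SE 0.15, adjusted p = 0.00159) in CA1199 and 1.0 (SE 0.14, adjusted p = 0.00774) in JTL621, and 1.25 (SE 0.26, adjusted p = 0.106) in CA1200 and 0.77 (SE 0.24, adjusted p = 0.9999) in JTL611 by limma. After heat shock it was 1.07 (SE 0.15, adjusted p = 0.00287) in CA1199 and 0.87 (SE 0.14, adjusted p = 0.0288) in JTL621, and 0.94 (SE 0.26, adjusted p = 0.8501) in CA1200 and 0.66 (SE 0.24, adjusted p = 0.999) in JTL611. In CA1200, where replicate 3 was the lowest in all 4 groups and replicate numbers paired the libraries, the fit with the replicate block gave adjusted p = 0.000589 at 20 °C and 0.0161 after heat shock. The authors' deposited table, which covers auxin against ethanol after heat shock, has cyp-29A3 at a log2 change of 1.23 (FDR = 4.39e-07) in CA1200, 1.49 (3.24e-07) in CA1199, 0.84 (0.0271) in JTL611 and 1.17 (0.000227) in JTL621. In JTL621 the call after heat shock was lost without any one of 10 of the 12 libraries (adjusted p 0.0520 to 0.225). The 2 exceptions were unheated auxin replicates 1 and 2, and the library rich in ribosomal RNA was among the 10 (0.0595). At 20 °C it was lost without unheated ethanol replicate 2 (0.0770) or unheated auxin replicate 3 (0.0635).

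A lower gene, cyp-33E3 (chrIV:8614995-8616023, plus strand), was called for auxin in 1 strain, CA1199. It is next to cyp-33E2 on chromosome IV, and F42A9.7 overlaps it on the other strand. In CA1200, cyp-33E3 was at 0.696, 0.610 and 0.453 CPM on ethanol at 20 °C, 0.666, 0.681 and 0.434 after heat shock on ethanol, 0.983, 3.99 and 1.56 on auxin at 20 °C and 0.726, 1.41 and 0.85003 after heat shock on auxin. In JTL611, cyp-33E3 was at 0.352, 1.18 and 0.796 CPM on ethanol at 20 °C, 0.740, 0.417 and 0.621 after heat shock on ethanol, 1.07, 2.21 and 1.86 on auxin at 20 °C and 0.706, 1.08 and 1.42 after heat shock on auxin. In CA1200 the auxin libraries were above the ethanol libraries at both temperatures, with replicate 2 highest, and in JTL611 they overlapped. In CA1199, cyp-33E3 was at 0.914, 0.260 and 0.871 CPM on ethanol at 20 °C, 0.326, 0.408 and 0.544 after heat shock on ethanol, 1.97, 3.13 and 2.97 on auxin at 20 °C and 1.02, 1.81 and 1.26 after heat shock on auxin. In JTL621, cyp-33E3 was at 0.994, 1.15 and 0.959 CPM on ethanol at 20 °C, 0.717, 0.799 and 0.723 after heat shock on ethanol, 1.14, 5.15 and 1.92 on auxin at 20 °C and 0.598, 4.78 and 1.03 after heat shock on auxin. In CA1199 the auxin libraries were higher at both temperatures without overlap, whereas in JTL621 replicate 2 on auxin stood far above the other auxin libraries at both temperatures, the heat-shocked one being the library rich in ribosomal RNA. In CA1199 cyp-33E3 averaged 0.681 ± 0.366 CPM (SD, n = 3) at 20 °C and 0.426 ± 0.110 after heat shock on ethanol, and 2.69 ± 0.633 and 1.36 ± 0.406 on auxin. It thus passed the filter of 1 CPM only through its auxin libraries and had to differ, so its values in CA1199 are a description. The auxin effect at 20 °C was 1.14 (SE 0.20, adjusted p = 0.0260) in CA1199 by limma. It was not called in CA1200 (0.89), JTL611 (0.61) or JTL621 (0.73). After heat shock it was 0.31, 0.37, 0.72 and 0.61 and not called, while the authors' deposited table has cyp-33E3 at 1.64 (FDR = 0.0217) in CA1199. The call in CA1199 was lost without unheated ethanol replicate 1 (adjusted p = 0.0511), 2 (0.0992) or 3 (0.0531) or unheated auxin replicate 2 (0.127) or 3 (0.199). With heat cyp-33E3 fell in CA1199 on auxin (−0.64, limma adjusted p = 0.0406), a call lost without heat-shocked auxin replicate 1 (0.142) or 3 (0.118) or unheated auxin replicate 2 (0.130) or 3 (0.138).

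Counted over the members, auxin after heat shock raised 0 of 33 in CA1200, 0 of 35 in JTL611, 1 of 35 in CA1199 and 1 of 36 in JTL621, where 0.0589%, 0.0916%, 0.246% and 0.172% of all genes rose by limma. At 20 °C it raised 0, 0, 2 (of which cyp-33E3 passed the filter only through its auxin libraries) and 1, against 0.177%, 0.0833%, 0.213% and 0.172%. No member fell with auxin. At an unadjusted p under 0.05, 3, 5, 4 and 3 members differed after heat shock and 4, 3, 5 and 2 at 20 °C, in CA1200, JTL611, CA1199 and JTL621. How many of all genes passed without adjustment was not counted, so these numbers show nothing particular to P450 genes. With the replicate block, CA1200 had 1 member raised after heat shock (cyp-29A3) and 2 at 20 °C (cyp-29A3 and cyp-34A9, the latter at an adjusted p of 0.0368). Leaving out unheated auxin replicate 3 of CA1200 gave 1 at 20 °C. Leaving out unheated auxin replicate 2 of CA1199 gave 2 after heat shock, and leaving out any unheated ethanol replicate or unheated auxin replicate 3 of CA1199 gave 1 at 20 °C. The auxin and heat comparisons of a strain share libraries.

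The member with the largest fitted auxin change after heat shock, described because of its values, was cyp-34A9 (chrV:3968134-3970540, minus strand). Its mean in CA1199 was 2.62 ± 1.23 CPM (SD, n = 3) on ethanol and 9.14 ± 1.83 on auxin. The change after heat shock was 0.63, 1.03, 1.52 and 0.98 in CA1200, JTL611, CA1199 and JTL621, with limma adjusted p of 0.127 in CA1199 and 0.230 in JTL621, and at 20 °C it was 1.33, 0.48, 1.35 and 0.65. Auxin libraries were above ethanol libraries without overlap at both temperatures in CA1199 and JTL621. Ethanol libraries of cyp-34A9 spread widely, from 0.906 to 2.73 CPM in unheated CA1200. The authors' deposited table calls cyp-34A9 after heat shock in CA1199 (1.86, FDR = 1.92e-07) and JTL621 (1.23, 0.00673).

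**Figure D4:**
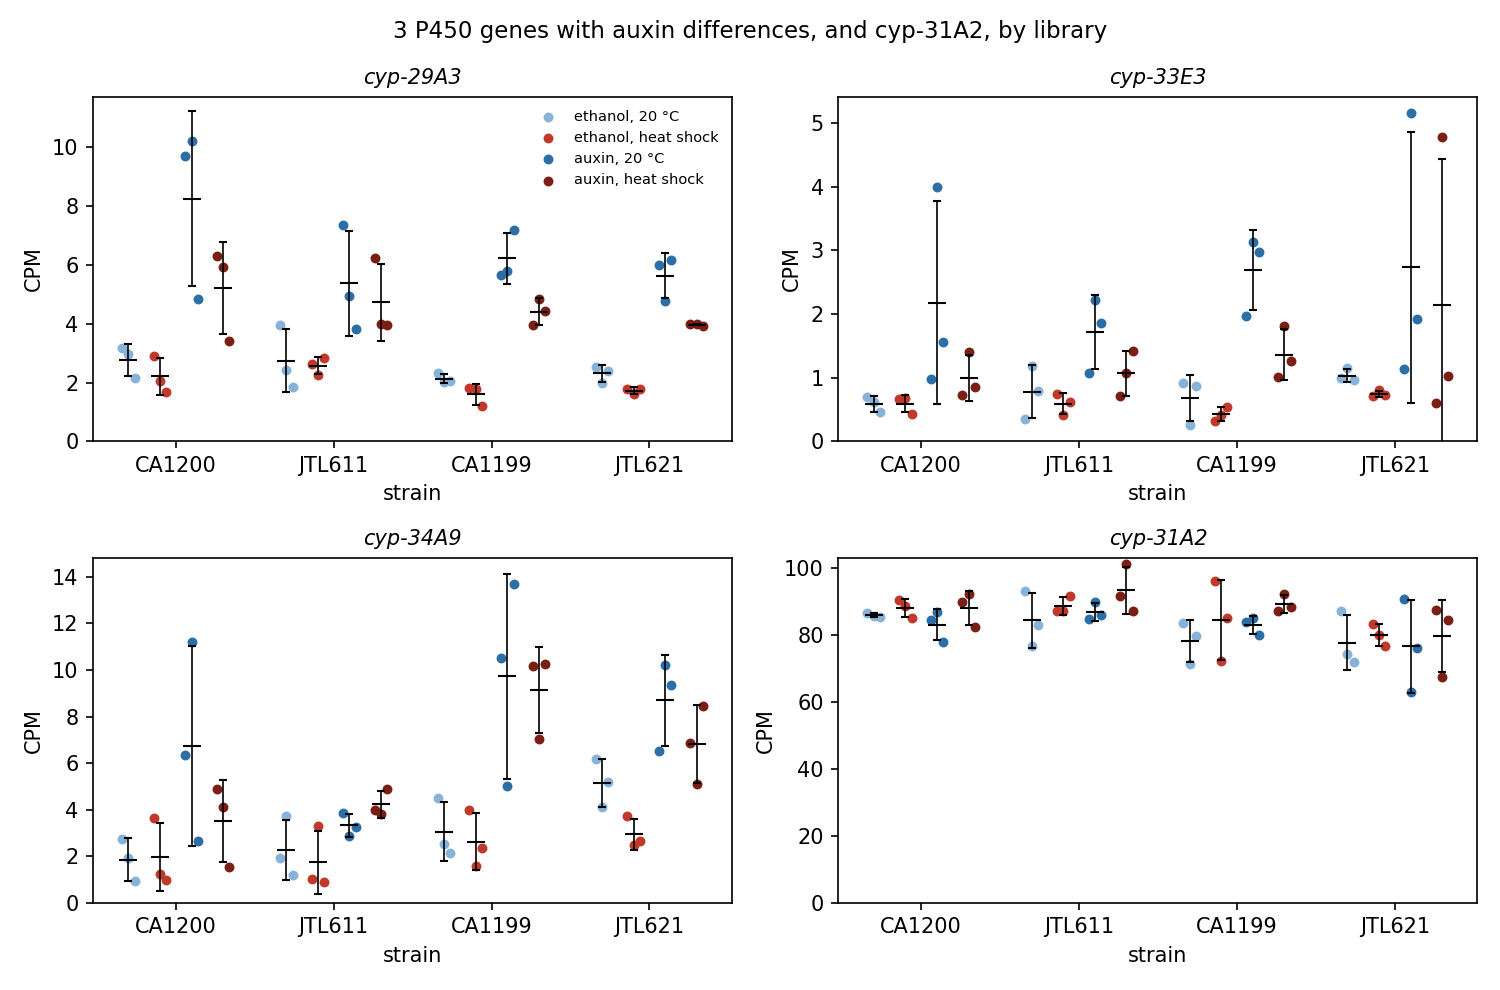
CPM of cyp-29A3, cyp-33E3, cyp-34A9 and cyp-31A2 in every library, by strain, plate and temperature. Points are libraries, short bars are means and error bars are 1 SD over 3 libraries, ending at 0 where they would run below it. Auxin libraries (darker) of cyp-29A3 lie above ethanol ones of the same temperature, apart from 1 narrow crossing in JTL611 at 20 °C, those of cyp-33E3 and cyp-34A9 spread more, and cyp-31A2 stays level.

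Whether the heat response depended on the plate, or that on ethanol differed between strains, was tested directly and no member was called. The heat response on auxin was not compared between strains, nor was JTL621 compared with JTL611. For the interaction of auxin and heat, 0 members were called in each strain, where 0%, 0.2%, 0% and 0% of all genes were called in CA1200, JTL611, CA1199 and JTL621 by limma. At an unadjusted p under 0.05 the interaction gave 0, 0, 0 and 1 members, the last being cyp-32A1 in JTL621 (0.82, adjusted p = 0.902). JTL611 minus CA1200, strains that differ by the hsf-1 tag, gave 0 of 32 members for the heat response on ethanol (0.0764% of all genes), 0 for the auxin effect after heat shock (0.229%) and 0 for that at 20 °C (0.00849%). JTL621 minus CA1199 gave 0 of 35 in each of these 3 tests, and CA1199 minus CA1200 0 of 31, with 0% of all genes called in each. At an unadjusted p under 0.05 there were 1, 1 and 0 members for JTL611 minus CA1200, 1, 2 and 0 for JTL621 minus CA1199, and 2, 1 and 0 for CA1199 minus CA1200, for heat, auxin after heat shock and auxin at 20 °C. These were single genes such as cyp-33C7, whose auxin effect after heat shock was −0.64 (SE 0.21, adjusted p = 0.9998) in JTL611 minus CA1200. How many of all genes passed without adjustment was not counted, here or for the interaction. A p that misses the threshold does not show that the strains respond alike. For cyp-13A2 the 95% interval of the difference in heat response was −0.34 to 0.56 for JTL611 minus CA1200, and −0.39 to 1.01 for JTL621 minus CA1199.

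Other genes of the P450 system moved in part. On ethanol 7.51%, 4.17%, 14.4% and 7.43% of all genes tested fell with heat in CA1200, JTL611, CA1199 and JTL621. The lists are small, and whether they exceed these shares was not tested. Of 8 tested partners and neighbouring steps of P450s, 1, 0, 1 and 0 fell after heat shock on ethanol, in the strain order CA1200, JTL611, CA1199, JTL621, and 0 rose. The one that fell was daf-36, a Rieske oxygenase of dafachronic acid synthesis (−0.46 in CA1200 and −0.57 in CA1199). Neither emb-8, the reductase, nor daf-9, a P450 of dafachronic acid synthesis whose symbol keeps it out of the members, was called there, with emb-8 in CA1200 at 123 ± 4.45 CPM (SD, n = 3) at 20 °C and 117 ± 2.50 CPM after heat shock. Of the heme handling genes 1 of 8, 1 of 7, 3 of 8 and 2 of 7 fell. The one down on ethanol in all 4 strains was hrg-7 (−1.83, −1.78, −1.87 and −1.74). Its secreted protease acts in heme signalling between the intestine and other tissues. The ferritin gene ftn-2 fell in CA1199 (−0.54) and JTL621 (−0.64), and the heme exporter gene mrp-5 in CA1199 (−0.72). Among other phase I enzymes 0 of 7, 0 of 7, 1 of 8 and 1 of 8 fell, the flavin monooxygenase gene fmo-1 in CA1199 (−1.20) and the aldehyde dehydrogenase gene alh-5 in JTL621 (−0.64). Of the regulators 2 of 14, 1 of 14, 2 of 15 and 0 of 15 fell, namely hif-1 in CA1200 (−0.34), JTL611 (−0.59) and CA1199 (−0.74) and the nuclear receptor gene nhr-28 in CA1200 (−0.58) and CA1199 (−0.85). Several of these heat calls were lost on leaving out 1 library. For daf-36 this was so for 10 of the 12 libraries in CA1200 (adjusted p 0.0542 to 0.190; it held without unheated ethanol replicate 3 or heat-shocked auxin replicate 3) and in CA1199 (0.0565 to 0.156; heat-shocked ethanol replicate 2 or unheated ethanol replicate 3), and for mrp-5 for 10 in CA1199 (0.0516 to 0.154; heat-shocked ethanol replicate 1 or unheated ethanol replicate 3). In CA1200 hrg-7 was lost without heat-shocked ethanol replicate 2 (0.120) or 3 (0.158), unheated ethanol replicate 1 (0.156) or 2 (0.0733), heat-shocked auxin replicate 2 (0.0509) or unheated auxin replicate 2 (0.0529), hif-1 without heat-shocked ethanol replicate 2 (0.0782) or 3 (0.0691) or unheated ethanol replicate 1 (0.0824) or 3 (0.0808), and nhr-28 without heat-shocked ethanol replicate 1 (0.0900) or 2 (0.0634) or unheated ethanol replicate 2 (0.0824) or 3 (0.0732). In JTL621 alh-5 was lost without heat-shocked ethanol replicate 1 (0.0884), 2 (0.0630) or 3 (0.0865) or unheated ethanol replicate 1 (0.0974) or 2 (0.104). On auxin plates, where 9.86%, 5.4%, 12.5% and 11.3% of all genes fell with heat, 0, 1, 3 and 4 heme handling genes fell. Thus hrg-7 was not called there in CA1200. On the same plates 2, 0, 1 and 1 partners and 1, 0, 2 and 1 other phase I enzymes fell. Of the regulators 2, 2, 3 and 3 fell, and 1 rose in CA1200. For the auxin effect 1 gene of these lists was called, vem-1, which encodes a heme-binding membrane protein of the cytochrome b5 type. By limma vem-1 rose in CA1199 after heat shock (0.95) and at 20 °C (0.90) and in JTL621 after heat shock (1.11). The call in JTL621 was lost without any one of 8 libraries (adjusted p 0.0514 to 0.245), among them the library rich in ribosomal RNA, without which it was 1.03 (adjusted p = 0.120), and held without unheated ethanol replicate 2 or 3 or unheated auxin replicate 1 or 2. In CA1199 it was lost after heat shock without heat-shocked ethanol replicate 3 (0.0536) or heat-shocked auxin replicate 1 (0.0802), and at 20 °C without unheated ethanol replicate 2 (0.0843) or 3 (0.0531) or unheated auxin replicate 1 (0.124) or 3 (0.159).

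Markers of tissues moved with heat as well, and their part in the falls of P450 genes was not tested. Of 12 intestine markers 11 were listed, and on ethanol 6, 4, 8 and 5 of them fell in CA1200, JTL611, CA1199 and JTL621 by limma, with a median change of −0.34, −0.35, −0.73 and −0.74, and 0 rose. Their summed level lay between 2331 and 3737 CPM in heat-shocked and between 3778 and 5758 CPM in unheated libraries on ethanol. Of 6 tested pharynx markers 4, 2, 5 and 4 rose and 0 fell, and their sum was 126 to 325 CPM after heat shock against 24.2 to 90.3 CPM at 20 °C. Of 8 neuron markers 3, 2, 4 and 3 fell (summed level 204 to 252 CPM after heat shock and 251 to 346 CPM at 20 °C), and of 7 body wall muscle markers 3, 0, 1 and 3 rose (5626 to 8883 against 3579 to 6444 CPM). Of 7 epidermis markers 1 rose in CA1200 and 1 in JTL611, and of 8 none rose in CA1199 and 1 in JTL621, while 0 fell. Of 12 germline markers 0, 0, 1 and 0 rose and 1, 1, 0 and 0 fell. No marker of these lists was called under auxin, and the regulator elt-2 is also an intestine marker.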

How the data were processed

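RNA was measured by directional polyA sequencing in 48 libraries, 3 for each of 16 groups. Per the submitters' processing notes, STAR, featureCounts and edgeR were used with WBcel235 and ce11, and their settings are not given in the sources used here. The authors deposited log2 CPM per gene, 1 table per strain, and tables of auxin against ethanol after heat shock, with a log2 fold change, a likelihood ratio score and a p-value with its FDR. Of the deposited log2 values, 100% came to whole reads within 0.05 of a read when turned back to linear CPM. There were 0 columns that matched no sample, and 0 pairs of libraries within a strain had the same read count at nearly all genes.

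Gene names came from the WBcel235 annotation. Linear CPM was analysed as log2(CPM + 1) in limma 3.58.1 under R 4.3.3, with a mean-variance trend, 1 fit per strain over its 12 libraries, for genes averaging 1 CPM or more. The fit was tested on simulated data. Strains were compared in a joint fit. The main fits used no count model, although whole reads were recovered and used for the voom weights. Intervals cover 95%.

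Members, lists and tests were chosen with earlier results of these data known. Values of every library are given for members called in the heat response on ethanol in at least 3 strains, those called in an auxin effect, an interaction or a strain difference, and the highest per kb in each subfamily with at least 3 listed members. Same-numbered libraries were taken as paired where every correlation of their deviations from the group means exceeded 0.1. This held for all 4 contrasts of CA1200 (0.115 to 0.448), for JTL611 apart from auxin after heat shock, for heat on auxin in CA1199, and for heat on ethanol and auxin at 20 °C in JTL621. The alternatives tried were other pseudocounts, filters, scalings, voom weights, only the 2 groups compared, a replicate block and leaving out each library. Promoter and protein sequences were not analysed here.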

Additional observations from a re-analysis of the deposited data

How the results depend on the processing

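Of the named members' calls, 0 reversed under any alternative, but many were lost. Quantile normalisation lost 21, fitting only the 2 groups compared 20, voom weights 8 and equal totals 3. With only 2 groups limma lost the heat call of cyp-33C3 on ethanol in JTL611 (adjusted p = 0.0867). Those of cyp-34A8 (0.0920) and cyp-36A1 (0.0615) on auxin in JTL621 were also lost. In JTL621 the auxin call of cyp-29A3 after heat shock was lost with 2 groups (0.173), equal totals (0.529) or quantile normalisation (0.0848). With a filter at a mean of 5 CPM, which tests fewer genes, the members called with heat on ethanol were 4 in CA1200 (8 in the report), 1 in JTL611 (2) and 7 in CA1199 (13), and on auxin 4 in CA1200 (7), 8 in CA1199 (13), 1 in JTL611 (4) and 5 in JTL621 (10), while the auxin effects gave 0 in CA1199 and JTL621. Fitting only the 2 groups compared, with fewer libraries, gave 5 in CA1200, 1 in JTL611 and 19 in JTL621 (9) for heat on ethanol, 3 in JTL621 for heat on auxin, 1 in CA1199 for auxin at 20 °C, and 0 in JTL621 for both auxin effects. Quantile normalisation gave 8 in CA1199 for heat on either plate, 1 in CA1199 for auxin at 20 °C and 0 in JTL621 for auxin after heat shock, where equal totals also gave 0. Equal totals moved the median of all genes by −0.14 for heat on auxin in CA1200 and −0.19 in JTL621, by −0.18 and −0.13 for auxin after heat shock and the interaction in JTL621, and by −0.15 for auxin after heat shock in JTL621 minus CA1199. With voom weights 6 members were called for heat on auxin in JTL621 and 1 for auxin at 20 °C in CA1199. The cause of these shifts was not tested. Shares of all genes called were not counted under the alternatives or on leaving out libraries. The counts of members therefore do not show a change particular to P450 genes.

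With the replicate block 1 member was called in CA1200 for auxin after heat shock and 2 at 20 °C, 4 in JTL611 for heat on ethanol, and 2 in CA1199 for auxin after heat shock, where the numbers did not pair the libraries and cyp-34A9 was added (adjusted p = 0.0122 in limma). One call of the report was lost under the block, cyp-13A5 with heat on auxin in JTL621, where the numbers did not pair the libraries either.

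Leaving out each library in turn gave 4 to 8, 2 to 5, 8 to 15 and 5 to 15 members for heat on ethanol in the strain order CA1200, JTL611, CA1199, JTL621, and 3 to 8, 2 to 5, 9 to 15 and 6 to 12 on auxin. For auxin after heat shock it gave 0, 0, 1 to 2 and 0 to 1, and at 20 °C 0 to 1, 0, 1 to 2 and 0 to 1. Interactions and differences between strains stayed at 0. Low levels limit the precision of members near 1 CPM.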
